A study of Bubalus bubalis with 3 samples.

Results

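The let-7 family comprised the 9 names beginning with bta-let-7 among the 622 miRNA names listed for fat of Chinese swamp buffalo, a type of water buffalo (Bubalus bubalis), at 6 months of age. The prefix bta stands for the cow, Bos taurus, whose miRNA names were used, and is left off in most places below. The names were bta-let-7a-5p, bta-let-7a-3p, bta-let-7b, bta-let-7c, bta-let-7d, bta-let-7e, bta-let-7f, bta-let-7g and bta-let-7i, and all of them were kept. Members were chosen by the start of their name, with earlier results of these data known. Adipose tissue was frozen after slaughter and small RNA was sequenced in 3 libraries of 1 group, called libraries 1, 2 and 3 after the numbers in their titles. There was no treatment, mutant or second age, and the labels name neither the fat depot nor whether the libraries stem from different animals. Each SD and p-value thus covers no more than the spread among these samples, which may be technical.

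let-7 was discovered in Caenorhabditis elegans as a regulator of developmental timing, and its mature sequences are strongly conserved across animals. A mature miRNA guides the silencing complex to messenger RNAs mainly through its seed, bases 2 to 8, which the members other than let-7a-3p share with their relative miR-98, so that they act on overlapping sets of targets. In mammals LIN28A and LIN28B bind let-7 precursors and block their maturation, and known targets include HMGA2, IGF2BP1 and RAS genes. In cultured mouse preadipocytes let-7 restrains differentiation with HMGA2 as a target, and in mice forced let-7 expression impairs glucose tolerance. None of these proteins or messenger RNAs was measured here.

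The deposited unit was TPM, in which a value is the number of reads of a miRNA after the reads assigned to all listed names are scaled to the same total in each library. The depth, read from the spacing of the lowest values, was 5480000 to 6860000 reads per library. The 166 names that averaged 10 TPM or more are called tested names below and serve as the background. Library 2 stood apart. It was the lowest of the 3 libraries for 91.6% of tested names. The most abundant miRNA, miR-10b, held 26.5%, 48.8% and 40.4% of TPM in libraries 1, 2 and 3, so for miR-10b library 1 lay furthest from the others. All 6 miRNAs of a list abundant in fat (miR-143, miR-26a, miR-30a-5p, miR-103, miR-378 and miR-193b) averaged 10 TPM or more, and their sum was between 287728 and 405018 TPM per library, although none of them is made by fat cells alone. Of the striated muscle list 0 of 4 reached that mean, with sums of 9.7 to 32.4 TPM and miR-206 at 0 in at least 1 library, and of the epithelial list 0 of 5 did, with sums of 7.1 to 15.4 TPM and miR-200b and miR-205 at 0 in at least 1 library. The liver miRNA miR-122 had 0.1 to 0.6 TPM.

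The family as a whole held 2.91% ± 1.05 of all TPM (SD, n = 3). The shares were 3.82%, 1.76% and 3.16% in libraries 1, 2 and 3, with Wilson 95% intervals of 3.81% to 3.84%, 1.75% to 1.77% and 3.14% to 3.17%. Library 2 was low and libraries 1 and 3 were high as deposited. After the scaling by size factors described below the totals were close, at 27525, 28917 and 27306 scaled TPM, with library 2 slightly the highest. The intervals cover counting error only and not the spread between samples. In bulk tissue fewer cells of a type and less RNA per cell cannot be told apart. With miR-10b taken out of the total, the family held 5.20%, 3.44% and 5.30% of the rest. The summed fat, striated muscle and epithelial lists and miR-122 were also lowest in library 2, as were 91.6% of tested names. Summed red blood cell markers (miR-451, miR-486 and miR-144, 3 of 3 averaging 10 TPM or more) were likewise lowest in library 2, at 2558 TPM, against 6182 and 5046 TPM in libraries 1 and 3. White blood cell markers (miR-142-5p, miR-150 and miR-223, 2 of 3 at or above it) summed to 133.1 TPM in library 2, against 618.2 and 217.0 TPM in libraries 1 and 3, and no marker of either list was at 0. Their part in the family's level was not tested.

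Of the 9 names, 8 had at least 100 TPM in all 3 libraries, whereas 12.7% of the 622 listed names did. The exception was let-7a-3p, an opposite arm of let-7a. The median of the 9 names was 2561, 1140 and 2129 TPM in libraries 1, 2 and 3, against a median of the tested names of 213, 91.5 and 156 TPM. On the scale of log2(TPM + 1) the family median lay above the tested median by 3.58, 3.63 and 3.76 in the 3 libraries. Each read stands for a whole mature miRNA of similar length, so levels of members were compared without scaling by length.

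bta-let-7a-5p, which in mammals is encoded by several hairpins on different chromosomes, was the most abundant member. It had 14088, 7175 and 10415 TPM in libraries 1, 2 and 3, with a mean of 10559 ± 3459 TPM (SD, n = 3), and ranked 14, 12 and 12 among all names. bta-let-7f, which in humans lies beside let-7a and let-7d in a cluster and has a further copy beside miR-98, followed with 10630, 4460 and 9158 TPM. These values corresponded to ranks 16, 17 and 15. let-7a-5p exceeded let-7f in every library, by 1.33, 1.61 and 1.14 times.

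bta-let-7i, transcribed from a locus of its own in humans, had 5222, 1794 and 5032 TPM in libraries 1, 2 and 3. bta-let-7b, which in humans shares a cluster with a copy of let-7a, had 3142, 2089 and 3139 TPM. The order of these members changed between libraries. let-7i was above let-7b in libraries 1 and 3, by 1.66 and 1.60 times, and below it in library 2, at 0.859 of its level. Their mean difference of 0.40 ± 0.54 on the log2(TPM + 1) scale was smaller than its SD (exact permutation test by sign flips, two-sided p = 0.5, n = 3), so let-7i and let-7b were not separated.

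bta-let-7g, which lies in an intron of WDR82 in humans, had 2561, 1140 and 2129 TPM in libraries 1, 2 and 3. let-7c, from the cluster with miR-99a, had 1869, 675 and 1235 TPM. Both were lowest in library 2 and highest in library 1. let-7e, from the cluster with miR-99b and miR-125a, was much lower with 379, 151 and 298 TPM. let-7d, the lowest member outside the 3p arm, had 310, 108 and 177 TPM. The ratio of let-7e to let-7d was 1.22, 1.40 and 1.68 in the 3 libraries.

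**Figure D1:**
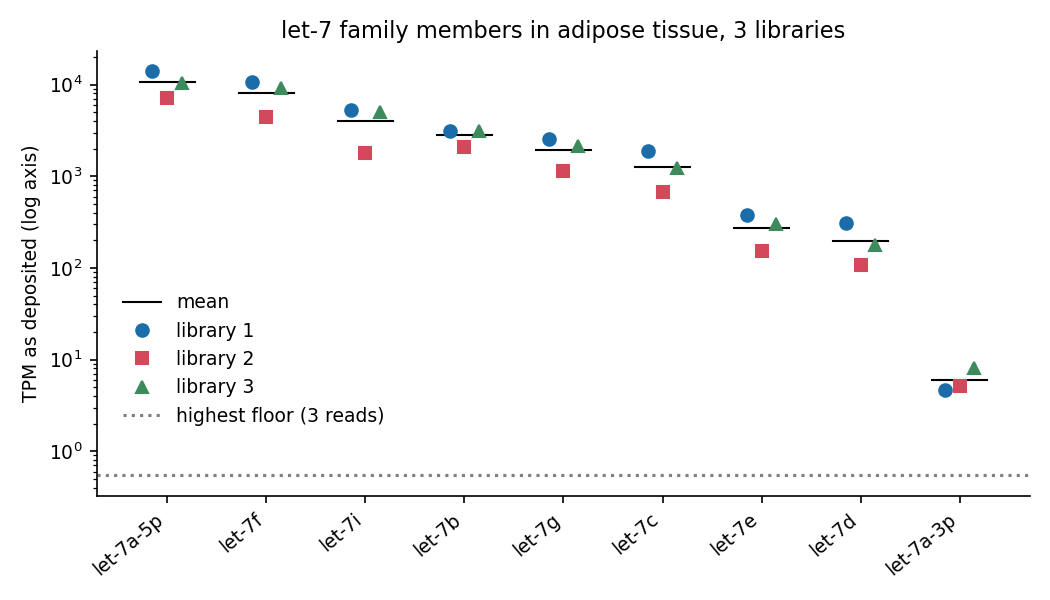
TPM as deposited on a log axis for the 9 let-7 names, ordered by mean, with a point for each of the 3 libraries, a bar for the mean and a dotted line at the highest floor of 3 reads. The 8 names other than let-7a-3p lie above 100 TPM in every library, with library 2 lowest for each of these 8, as for 91.6% of tested names.

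By mean level the order was let-7a-5p, let-7f, let-7i, let-7b, let-7g, let-7c, let-7e, let-7d and let-7a-3p. Of the 36 pairs of names 35 kept 1 order throughout the 3 libraries, and the exception was let-7i with let-7b. Of the 8 pairs of neighbours in that order 7 were separated, which means the same order in 3 of 3 libraries and a mean log2 difference above its SD. The closest separated neighbours were let-7a-5p and let-7f, with a mean difference of 0.43 ± 0.25 (SD, n = 3), and let-7e and let-7d, with 0.51 ± 0.23. With 3 libraries the smallest two-sided p of an exact permutation test by sign flips is 0.25, so the order is a description. Mature let-7 sequences differ by few bases, and the division of reads matching several members is not given in the sources used, so levels of single members are uncertain to that extent.

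Shares within the family do not depend on how a library is scaled. let-7a-5p made up 36.9% ± 3.90 of the let-7 total (SD, n = 3), with 36.9%, 40.8% and 33.0% in libraries 1, 2 and 3. let-7f made up 27.4% ± 1.86, and the pair together held 64.7%, 66.1% and 62.0% in the 3 libraries. let-7i added 13.3% ± 2.89 and let-7b 10.01% ± 1.82, which brought these 4 names to 87.5% ± 0.835.

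The steadiest share was that of let-7g, with 6.70%, 6.48% and 6.74% in libraries 1, 2 and 3. In library 2 the shares of let-7i and let-7b stood on opposite sides of those in libraries 1 and 3. let-7i was lowest in library 2 with 10.2% there, against 13.7% and 15.9% in libraries 1 and 3. let-7b was highest in library 2 with 11.9% there, against 8.22% and 9.94% in libraries 1 and 3. let-7c held 4.21% ± 0.590, let-7e 0.932% ± 0.0663, let-7d 0.662% ± 0.132 and let-7a-3p 0.0226% ± 0.00910.

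**Figure D2:**
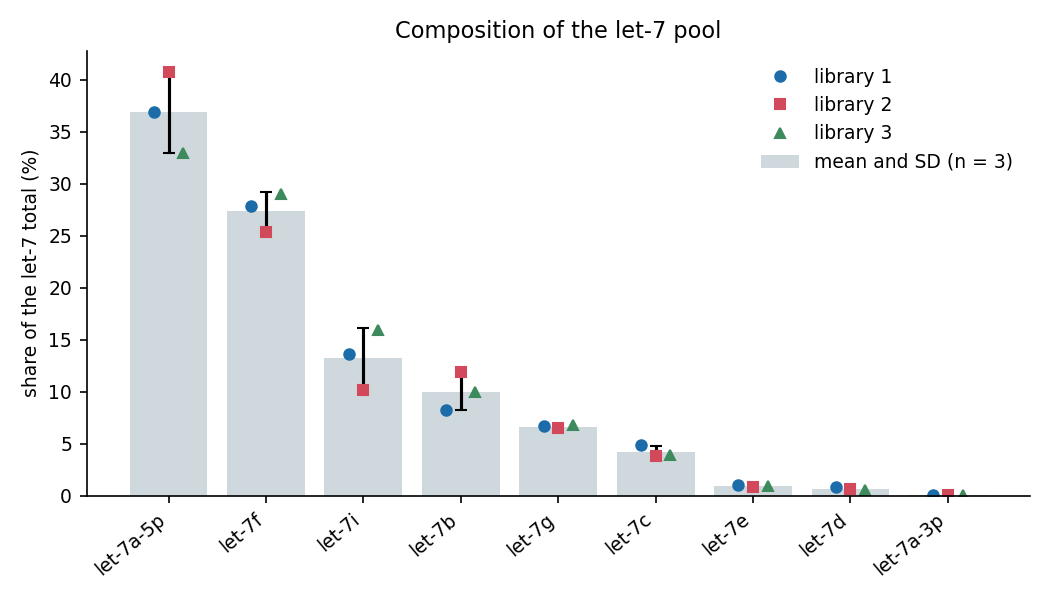
Share of the let-7 total in percent for each of the 9 names, with bars for the mean, error bars for the SD and a point for each of the 3 libraries. let-7a-5p and let-7f hold 64.3% on average, and let-7i and let-7b trade places in library 2.

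Across libraries 8 of the 9 names followed the order library 1, then 3, then 2, as did 65.7% of the tested names. let-7a-3p was the exception, with 4.7, 5.2 and 8.2 TPM in libraries 1, 2 and 3. For let-7b libraries 1 and 3 were nearly equal, at 3142 and 3139 TPM, so its place in that order rests on a very small gap. The fold between the highest and the lowest library was 1.504 for let-7b and 1.96 for let-7a-5p, and 2.25 to 2.91 for let-7g, let-7f, let-7e, let-7c, let-7d and let-7i. The median SD of log2(TPM + 1) over the 9 names was 0.67, beside 0.66 over the tested names. Library 2 set both values. Without it they were 0.24 and 0.28.

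The size factor of a library was the median, over tested names, of the ratio of a name to its geometric mean over libraries. Size factors were 1.39, 0.609 and 1.16 for libraries 1, 2 and 3, or 0.47, -0.72 and 0.21 on the log2 scale. After division by them 1 of the 9 names, let-7e, kept the order library 1, then 3, then 2, beside 18.7% of the tested names. The let-7 total was then 27525, 28917 and 27306 scaled TPM, or 27916 ± 874 (SD, n = 3). Library 2, the lowest as deposited, then had the highest total. The median SD fell to 0.19 over the 9 names, beside 0.29 over the tested names.

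What remained after size factors differed between members. let-7g was nearly level, with 1845, 1874 and 1841 scaled TPM and an SD of 0.01 on the log2 scale. let-7f, with an SD of 0.06, and let-7e, with 0.07, were close to it. let-7b and let-7a-5p, both below their mean in library 2 as deposited (by -0.39 and -0.50), lay above it there after size factors, by 0.31 and 0.20. let-7i stayed below its mean in library 2, by -1.01 as deposited and -0.30 after size factors. let-7d and let-7c were highest in library 1 under both scalings, with 0.29 and 0.20 above their mean there after size factors.

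**Figure D3:**
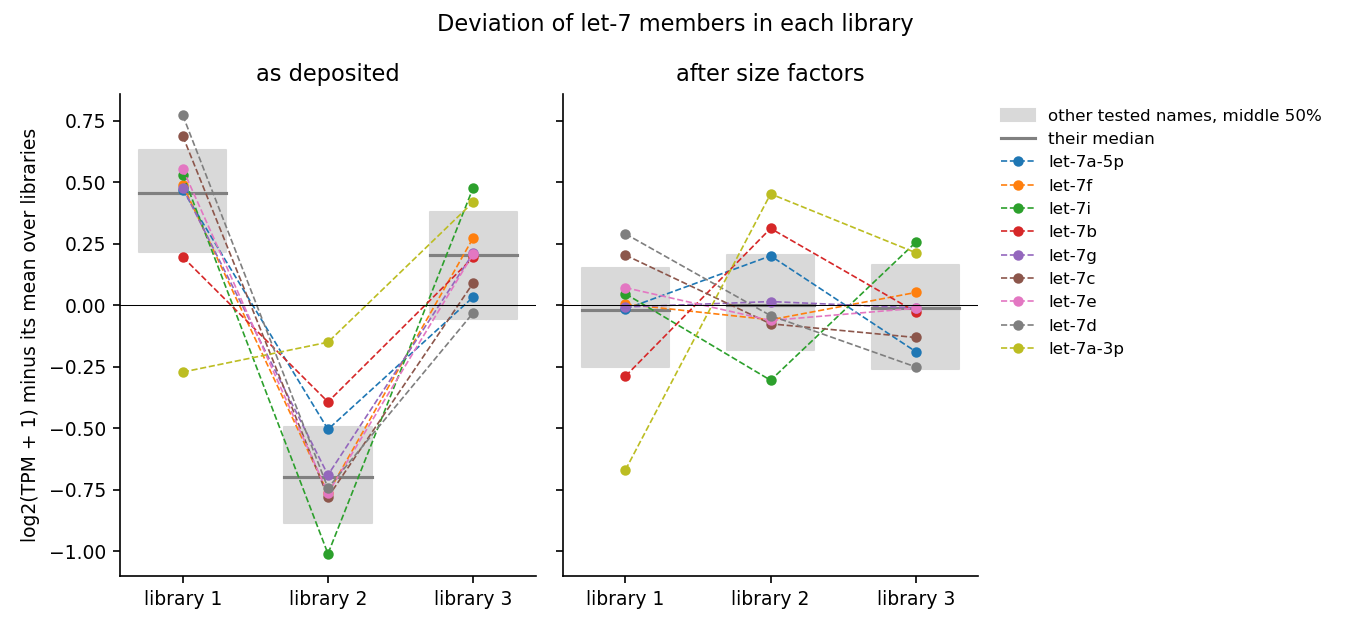
Deviation of log2(TPM + 1) from its own mean over the 3 libraries for each let-7 name, as deposited (left) and after size factors (right), with lines joining the points of a name and grey boxes for the interquartile range of the other 158 tested names. As deposited 8 of 9 names are lowest in library 2, as are 91.6% of tested names. After size factors let-7g stays within 0.02 of its mean while let-7b, let-7i and let-7a-3p spread.

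How steadily members kept their ratio to each other was described by the SD of their log2(TPM + 1) difference over the 3 libraries. Over the 28 pairs of the 8 names other than let-7a-3p the median SD was 0.26, beside 0.53 over the 12403 pairs of the other 158 tested names and 0.44 over pairs of the 87 names outside the family that averaged 100 TPM or more. Of the 28 pairs 27 lay below 0.53. The steadiest were let-7f with let-7e (SD 0.07), let-7f with let-7g (0.07) and let-7g with let-7e (0.08). The least steady was let-7i with let-7b (0.54), followed by let-7b with let-7d (0.50) and let-7a-5p with let-7i (0.48). With libraries 1, 2 and 3 left out in turn the median over let-7 pairs was 0.23, 0.20 and 0.21, against 0.39, 0.42 and 0.45 over the other pairs.

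Several let-7 hairpins are transcribed together with other miRNAs, and these partners were set beside them. In humans a copy of let-7a lies with miR-100 and a copy of miR-125b, let-7c with miR-99a and the other copy of miR-125b, let-7e with miR-99b and miR-125a, and a copy of let-7f with miR-98. Members encoded in several copies sum over all of them, so a ratio to a partner is not that of a single transcript. All 6 partner names were listed and gave 7 pairs with let-7 members.

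let-7f and miR-98 kept the steadiest ratio of the 7. miR-98, which has the let-7 seed but another name, had 604, 251 and 529 TPM in libraries 1, 2 and 3. let-7f exceeded it by 17.6, 17.8 and 17.3 times, a log2 difference of 4.13 ± 0.02 (SD, n = 3). Of the 12403 other pairs 0.0968% had a lower SD. let-7a-5p and miR-125b, the vertebrate relative of worm lin-4, came next, with ratios of 5.78, 5.86 and 6.64 and a difference of 2.60 ± 0.11. A lower SD was found in 4.41% of the other pairs.

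Among the cluster pairs, ratios to the miR-99 and miR-100 partners, which belong to the miR-10 relatives, moved most. let-7a-5p was below miR-100 in every library, at 0.725, 0.284 and 0.678 of its level in libraries 1, 2 and 3. let-7c was at 0.303, 0.113 and 0.406 of the level of miR-99a-5p. let-7e was at 0.0242, 0.00865 and 0.0240 of the level of miR-99b. In each of these pairs library 2 had the lowest ratio, 2.55 to 3.60 times below the library with the highest. The differences were -0.95 ± 0.76, -2.06 ± 0.97 and -5.86 ± 0.85 on the log2(TPM + 1) scale, and without library 2 they were -0.51, -1.51 and -5.37. Of the 12403 other pairs 70.9%, 84.1% and 77.0% had a lower SD. These 3 cluster pairs were thus less steady than most pairs of the other tested names.

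Of the 6 partners, miR-98, miR-125a and miR-125b were lowest in library 2, as were 8 of the 9 let-7 names and 91.6% of tested names. The partners miR-100, miR-99b and miR-99a-5p were lowest in library 3. miR-100 had 19438, 25290 and 15354 TPM in libraries 1, 2 and 3, so library 2 was its highest. miR-99b was also highest in library 2, with 15672, 17504 and 12393 TPM, and miR-99a-5p had 6160, 5995 and 3042 TPM. miR-125a had 5469, 2761 and 3518 TPM in the 3 libraries, and miR-125b had 2437, 1224 and 1568 TPM. let-7c minus miR-125b was -0.53 ± 0.29 on the log2(TPM + 1) scale, and let-7e minus miR-125a was -3.86 ± 0.31. A lower SD was found in 22.1% and 25.1% of the other pairs. All 7 differences had the same sign in 3 of 3 libraries, for which the exact two-sided permutation p is 0.25, the smallest possible.

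**Figure D4:**
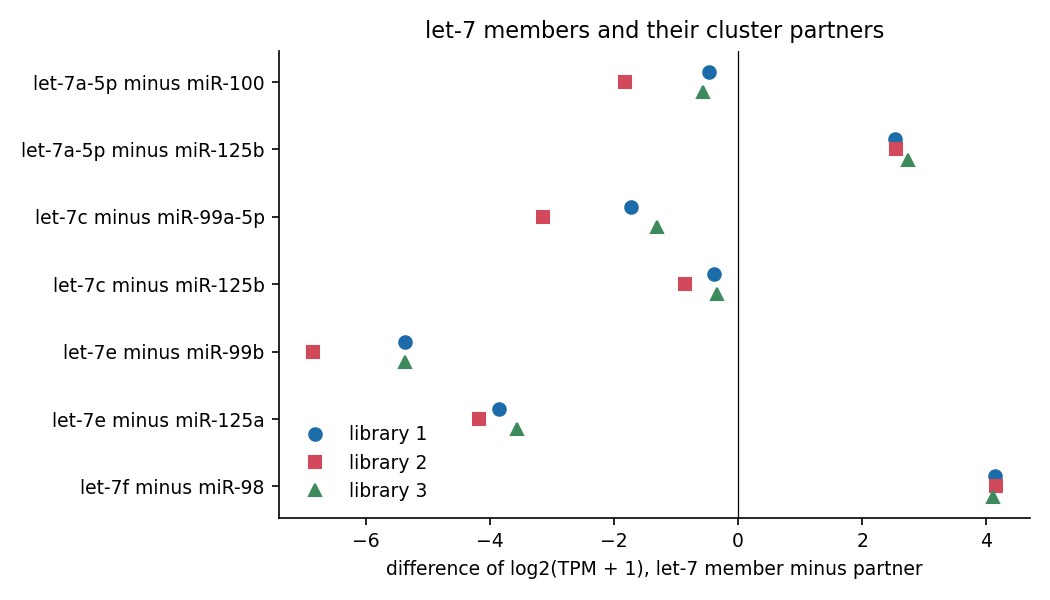
Difference of log2(TPM + 1) between a let-7 member and its cluster partner, member minus partner, for 7 pairs and 3 libraries. let-7f minus miR-98 lies between 4.11 and 4.15 in all libraries, whereas library 2 is far to the left for the miR-100, miR-99a-5p and miR-99b pairs.

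let-7a was the only member listed with both arms, and the 7 names without an arm ending were taken as deposited. The 5p arm, which carries the let-7 seed, had 14088, 7175 and 10415 TPM in libraries 1, 2 and 3, and the 3p arm 4.7, 5.2 and 8.2 TPM. The 3p values correspond to about 32, 35 and 45 reads, with exact 95% counting intervals of 21.9 to 45.2, 24.4 to 48.7 and 32.8 to 60.2 reads, and lay above the floor of 3 reads in each library. The 3p arm was thus present but rare. It made up 0.0334%, 0.0724% and 0.0787% of the summed reads of both let-7a names. The exact binomial 95% intervals were 0.0226% to 0.0467%, 0.0502% to 0.1001% and 0.0574% to 0.105%. In mammals the 5p name stands for several hairpins, and the 3p name need not cover all of them. These shares and the difference below thus need not be those of a single hairpin. The interval of library 1 does not overlap those of libraries 2 and 3, which overlap each other. These intervals cover counting error only and not the spread between samples, so whether library 1 differs beyond that spread was not tested.

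The difference between the arms, 5p minus 3p, was 10.53 ± 0.64 on the log2(TPM + 1) scale (SD, n = 3), with 11.27, 10.18 and 10.14 in libraries 1, 2 and 3. In limma over the 20 hairpins with both arms listed and the more abundant arm averaging 10 TPM or more, its standard error was 0.30 and its adjusted p 8.70e-31. Of these hairpins 11, or 55%, were called with more 5p and 6, or 30%, with more 3p. This p rests on a spread pooled over hairpins, and an exact sign-flip permutation test on 3 libraries alone cannot go below p = 0.25. Its difference stood behind that of miR-99a (11.56) and ahead of that of miR-21 (10.22), the gap to miR-21 being smaller than the SD of let-7a and the gap to miR-99a larger than either SD. Neither gap was tested.

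**Figure D5:**
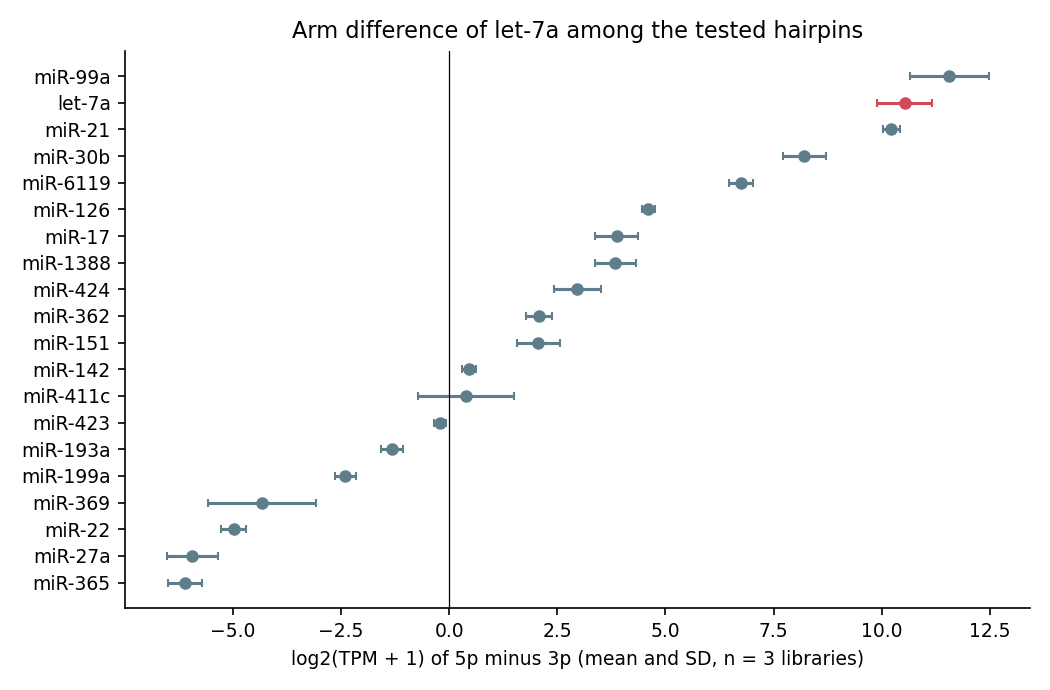
Mean difference of log2(TPM + 1) between the 5p and the 3p arm, with error bars for the SD over 3 libraries, for the 20 tested hairpins. let-7a (red) is the second from the top at 10.53.

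Names outside the family whose profile over the 3 libraries lay nearest to that of the let-7 total were found by the distance between centred log2(TPM + 1) values, among 158 tested names. The nearest 5 were candidate 13_6388 (distance 0.048; no known miRNA name), miR-30e-5p (0.049), miR-199a-5p (0.055), miR-194 (0.058) and miR-30c (0.069), beside a median distance of 0.41. The let-7 total deviated from its mean by 0.46, -0.65 and 0.19 in libraries 1, 2 and 3. These values lay close to the log2 size factors of 0.47, -0.72 and 0.21. Names near the total are thus names that followed the shift common to tested names, and nearness does not show a link to let-7. miR-30e-5p, of a family that favours adipocyte differentiation in culture, had 4347, 1920 and 3450 TPM in libraries 1, 2 and 3. miR-199a-5p, abundant in fibroblasts, had 478, 208 and 386 TPM. With a library left out, 0 to 1 of them stayed among the nearest 5. Each profile is then a single log2 difference, so this cannot show how firm the ranking over 3 libraries is.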

How the data were processed

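Small RNA libraries were sequenced from adipose tissue of 6-month-old Chinese swamp buffalo, in 1 group of 3. Per the labels' protocols, RNA was extracted with TRIzol and adaptors were ligated to both ends. Per the submitters' processing notes, the aligner Bowtie and the bovine build UMD3.1 belong to the workflow, with no version or role stated. How reads were counted, annotated, filtered or divided among similar miRNAs is not given in the sources used. TPM values for 622 names were deposited by the authors with 1 decimal and named so per the file headers. Column totals were equal within rounding (999994, 999993 and 1000001).

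All 3 value columns were mapped by name. Depth was estimated as the step on which values up to 30 TPM lay (99.5% to 100% of 371 to 400 values, against 48.8% to 69.7% at random), which gave 6860000, 6770000 and 5480000 reads and floors of 3 reads at 0.437, 0.443 and 0.547 TPM. Intervals and floors cover counting error only. Values were analysed as log2(TPM + 1), which understates changes of low miRNAs. Tested names had a mean of at least 10 TPM. Arm differences were tested with limma 3.58.1 (R 4.3.3, Benjamini-Hochberg adjustment over hairpins), checked on simulated data. Size factors were medians of ratios over tested names. Named miRNAs were the 9 members, their 6 cluster partners and the 5 nearest names. Members, lists and rules were chosen with earlier results of these data known. Pseudocount, minimum mean, scaling and single libraries were varied.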

Additional observations from a re-analysis of the deposited data

How the results depend on the processing

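The let-7a arm difference kept its sign and its call under every alternative run (pseudocounts 0.1 and 10, no minimum, a minimum of 100 TPM, each library left out), between 9.32 and 10.74, with limma adjusted p from 7.98e-44 to 0.000133. The family share of TPM was 4.65% with miR-10b taken out and 2.46% to 3.49% with a library left out. The family median lay 6.73 above the median of names averaging 1 TPM or more and 1.53 above that of names averaging 100 TPM or more. These minimums change which names form the reference. With a library left out the family median lay 3.56 to 3.97 above the tested median. That range goes beyond the 3.58 to 3.76 of the single libraries, so it is not the spread between libraries alone. The median SD of the members was 0.19 after size factors and 0.24 to 0.89 with a library left out. Of the 5 names nearest to the family total, 0 to 1 stayed with a library left out, when each profile is a single log2 difference. The cause of the change was not tested. Size factors shift all names of a library alike, so they change these distances only through the pseudocount. With pseudocount 10 let-7f minus miR-98 was 4.10. The share of let-7a-5p, the number of ordered pairs and the median partner difference stayed within their SD or 1.5 times under every alternative run, with 31 ordered pairs at a gap of at least 1.5 times. Pair SDs with a library left out were computed after the data were seen. Reads of let-7a-3p, 32 to 45 per library, limit its precision, while other members had at least 730 reads. No paired analysis was possible because the series has 1 group, so that no groups share replicate numbers to block on; differences between names were taken within each library.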
